A study of Caenorhabditis elegans with 20 samples.

Results

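The F-box A genes of Caenorhabditis elegans (symbols beginning with fbxa) encode proteins that carry an F-box, the short domain that docks a protein onto Skp1-like adaptors (SKR proteins in the worm) within cullin ubiquitin ligases. In most of them the F-box is joined to an FTH domain, named after the germline sex-determination protein FOG-2, and the F-box protein is the subunit that chooses which substrate is ubiquitinated. The family is greatly expanded in nematodes and often lies in tandem arrays of related copies, and most of its members have no known substrate. FBXA-75 and FBXA-158 are the best known in this respect, as substrate adaptors of the CUL-6 ligase, which belongs to the intracellular pathogen response that the worm mounts against microsporidia and a virus of the gut.

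Members were taken as the genes of the expression table whose sequence name has a symbol beginning with fbxa in the RefSeq gene table of assembly WBcel235. This gave 160 of the 15568 genes listed, out of 222 F-box A genes in the reference, so that 72.1% of the family could be read. Of the 160, 142 are annotated as protein coding and 18 as pseudogenes, and they lie mainly on chromosomes V (64) and III (53), with 16 on II, 14 on X, 7 on I and 6 on IV. Neither protein nor promoter sequences of the members were at hand, so that close copies could not be listed by identity. How reads that match several such copies were counted is not given in the sources used here, and levels of single members inside tandem arrays are uncertain to that extent.

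RNA was sequenced from whole L3 larvae of 3 genotypes, with 2 libraries of each, to ask which genes change when the DREAM repressor complex or the histone variant H2A.Z is lost. N2 is the wild type. The lin-35 mutant (strain JA1507) carries the n745 nonsense allele of the only Rb-like pocket protein gene of the worm, whose product is part of DREAM, and was outcrossed. The htz-1 mutant carries the ok3099 deletion of the H2A.Z gene in a strain that the labels call VC2490 and the study's methods VC2480, in which the allele is kept over the GFP-marked balancer nT1(qIs51). Its homozygous larvae therefore came from heterozygous mothers, which can supply HTZ-1. All larvae were grown at 20°C in liquid culture after bleaching, with eggs hatched in M9 buffer for 24 to 42 h. A COPAS worm sorter was used to collect non-GFP larvae of htz-1, and larvae of the other genotypes were purified by sucrose flotation instead, so that sorting and the htz-1 genotype cannot be told apart. The labels do not say whether paired libraries derive from separate cultures, and p-values therefore reflect only how far these libraries vary, which may be technical variation.

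The values are RPKM, reads per kilobase of gene model and scaled to the library total. Library totals behind them ranged from 13604791 to 18301926 reads, of which 73.9% to 77.2% fell in listed genes. For the mutated genes, RPKM of lin-35 were 12.1 and 11.1 in N2 and 12.8 and 13.3 in the mutant, where a nonsense allele need not lower the transcript and the level checks nothing, and RPKM of htz-1 were 78.5 and 81.3 in N2, 138 and 155 in lin-35 and 65.6 and 27.8 in its own mutant. Both htz-1 libraries lay below N2 for this gene but far from each other, replicate 1 being near the N2 level, and both lin-35 libraries lay above N2. The lin-35 libraries differed from each other in this family: 59 of the 77 members tested were higher in replicate 1, with a median difference of 0.35 on the log2 scale, against 49.2% of all tested genes. In N2 replicate 1 was higher for 45 of the 77, and in htz-1 for 37. Markers of tissues also moved in whole larvae. Of 11 germline markers tested 5 were higher and 1 lower in lin-35, and their summed RPKM was 287 to 308 in N2, 869 to 924 in lin-35 and 340 to 408 in htz-1. Those higher were pgl-1, pgl-3, glh-1, him-3 and syp-1, while glh-2, glh-4, gld-1, htp-3 and rec-8 were not called. The sum thus rests on some of the markers. pgl-3 measured 9.65 and 10.7 RPKM in N2 and 219 and 213 in lin-35, and daz-1 22.8 and 21.9 in N2 and 10.7 and 14.8 in lin-35. Of 6 body wall muscle markers 3 were lower in lin-35 (summed RPKM 2967 to 3116 in N2 and 1897 to 2250 in lin-35), and of 5 intestinal markers 2 were higher and 3 lower (2143 to 2343 and 1668 to 1728). The higher intestinal markers were elt-2 and ges-1, and asp-1, a lower one, held most of the intestinal sum (1404 and 1339 RPKM in N2). With quantile normalization 1 of the muscle markers was lower, and 1 of the intestinal markers was higher and 2 lower. The 8 sperm markers had a summed RPKM of 0.846 to 2.14 over the 6 libraries. The part of these shifts in the family's values was not tested, and in whole larvae fewer cells of a type and less RNA per cell cannot be told apart.

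F-box A transcripts were scarce in wild-type larvae. The median member had 0.417 RPKM in N2, only 2 of the 160 reached 10 RPKM, and 20 had no read in either N2 library. In lin-35 the median member was at 1.36 RPKM, 16 reached 10 RPKM and 9 had no read, while in htz-1 the median was 0.616, 3 reached 10 RPKM and 11 had no read. A test was made for genes with a mean of at least 1 RPKM over the 6 libraries, which 77 members (48.1%) and 9679 of all genes (62.2%) passed. Of the other 83 members, 40 had a mean between 0.25 and 1 RPKM, 38 had a lower mean and 5 had no read in any library. Just inside the limit stood fbxa-58 (1.03 RPKM), fbxa-85 (1.05) and fbxa-172 (1.11), and just outside it fbxa-185 (0.956), fbxa-66 (0.925) and fbxa-116 (0.892).

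The 10 members with the highest N2 levels were fbxa-64, fbxa-67, fbxa-101, fbxa-92, fbxa-91, fbxa-156, fbxa-114, fbxa-150, fbxa-54 and fbxa-78. fbxa-64 stood at 17.3 and 12.3 RPKM in N2, at 28.6 and 19.6 in lin-35 and, for htz-1, 9.98 and 3.8. fbxa-67 stood at 15.3 and 11.2 in N2, at 35.4 and 22.7 in lin-35 and, for htz-1, 10.2 and 7.45. Both were therefore highest in the lin-35 libraries and lowest in the htz-1 libraries, with no overlap of lin-35 and N2. The next 3 were fbxa-101 (7.82 and 10.9 RPKM in N2), fbxa-92 (11.6 and 6.75) and fbxa-91 (10.0 and 7.88), and these neighbours in the order do not differ beyond the spread of their libraries. fbxa-101 and fbxa-114, at 6.77 and 8.52 RPKM in N2, passed the threshold in none of the 3 comparisons.

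Summed over all 160 members, the family took 319 and 289 RPM (reads scaled to the library total as in RPKM, without gene length) in N2, 706 and 523 in lin-35 and, for htz-1, 332 and 332. Both lin-35 libraries thus lay above the other 4, and replicate 1 lay above replicate 2. In lin-35 4 members (fbxa-182, fbxa-158, fbxa-165 and fbxa-75) held 17.4% and 16% of the family's reads, against 1.92% and 1.17% in N2. These 4 are the members with the largest fitted rises in lin-35, so a larger share there follows from the choice. Without these 4, the sums were 583 and 440 in lin-35, 313 and 286 in N2 and 330 and 329 in htz-1. The 83 members below the limit gave 21.1 and 16.7 RPM in N2, 49.9 and 39.9 in lin-35 and, for htz-1, 25.1 and 24.0. All 5889 genes below the limit gave 977 and 917 in N2, 1567 and 1470 in lin-35 and, for htz-1, 1178 and 1322, so the scarcest genes as a whole were also higher in lin-35.

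**Figure D1:**
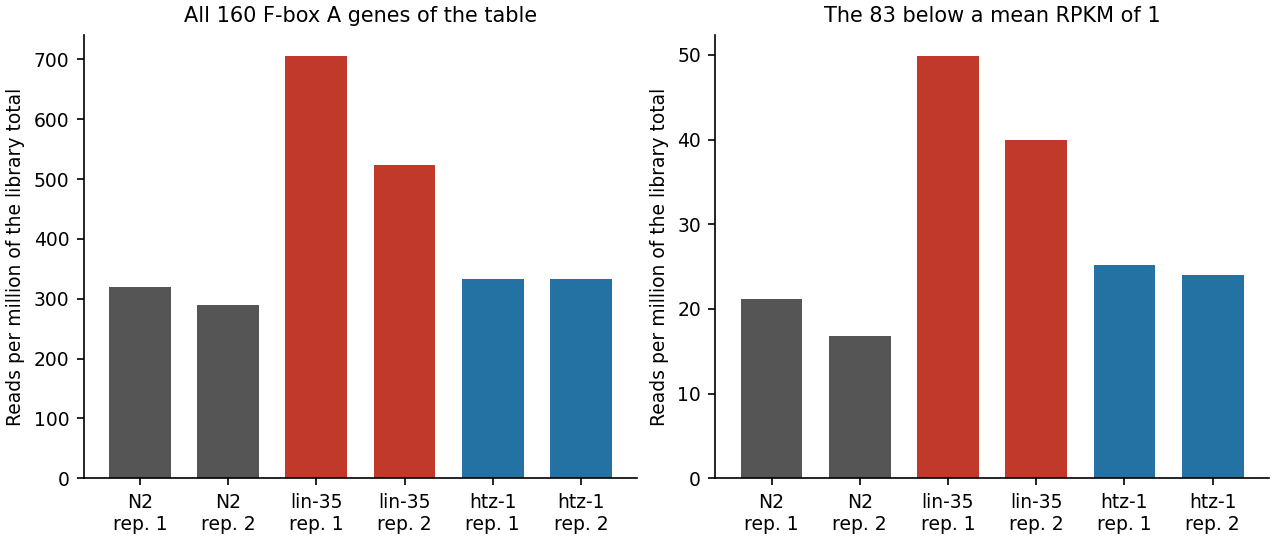
RPM, on the library total (vertical axes), in each of the 6 libraries, for all F-box A genes of the table (left) and for the members below a mean of 1 RPKM (right). Each bar is 1 library. The lin-35 libraries reach 706 and 523 on the left, and the N2 and htz-1 libraries lie between 289 and 332.

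Loss of lin-35 was accompanied by higher levels of many F-box A genes. Of the 77 members tested, 25 (32.5%) rose in lin-35 against N2 and 3 (3.90%) fell, at an adjusted p below 0.05 in limma with Benjamini-Hochberg adjustment over all 9679 genes. Among all tested genes 12.1% rose and 11.6% fell. The median log2 fold change of the members was 0.39, against -0.01 over all tested genes, and 52 members had a value above 0. Fold changes were taken on log2(RPKM + 0.5) after scaling each library by its median ratio, which understates the change of scarce genes. Without that scaling all tested genes shifted upward in lin-35 by a median of 0.15, and 30 members were then called higher and 1 lower, with 1781 of all genes higher and 592 lower in place of 1175 and 1125. A member that is scarce in N2 could enter the test only through a mutant, and 11 of the 25 had an N2 mean below 1 RPKM. With a mean of 1 RPKM asked of N2 as well, a limit chosen after the data were seen, 14 of 60 members (23.3%) rose and 3 fell, where 10.2% of all genes rose and 11.9% fell. With no limit at all, 35 of 155 members rose and 2 fell, where 8.34% and 6.61% of all genes did. Calls for 15 of the 25 risen members held when each of the 6 libraries was left out in turn, and the count fell to 15 without N2 replicate 2.

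**Figure D2:**
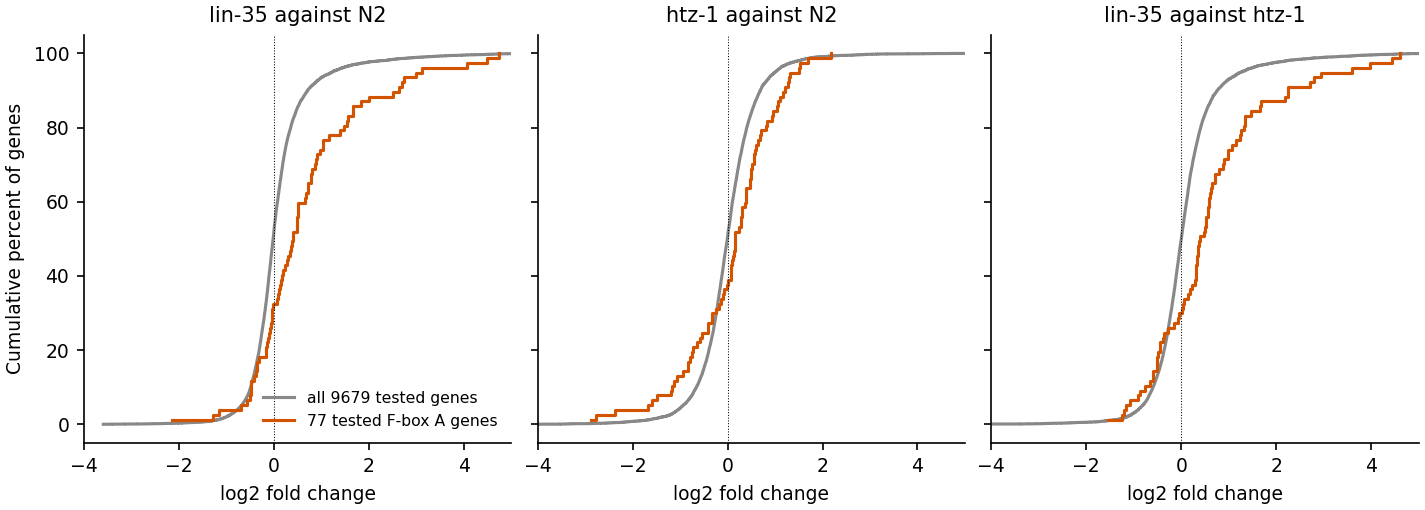
Cumulative percent of genes (vertical axes) by log2 fold change (horizontal axes) for the tested F-box A genes (orange) and all tested genes (grey), 1 panel per comparison. In lin-35 against N2 the orange curve lies to the right of the grey one over most of its range (medians 0.39 and -0.01), and in htz-1 against N2 it crosses it.

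The 3 largest rises were those of fbxa-75, fbxa-165 and fbxa-158, and 2 of these encode the CUL-6 adaptors. fbxa-75 had no read in either N2 library, stood at 22.4 and 8.68 RPKM in lin-35, and was at 0 and 0.243 in htz-1. The lin-35 libraries were thus far above all others, though they differed from each other by more than a factor of 2. The pooled lin-35 rate of fbxa-75 was 208.7 times a floor of 3 reads over both N2 libraries (0.0743 RPKM). This ratio leaves out the spread of the lin-35 libraries and their counting error. The fitted log2 fold change of fbxa-75 was 4.74 ± 0.44 (SE, limma adjusted p = 0.000515). For fbxa-158, the other adaptor, the levels were 0.409 and 0.495 RPKM in N2, 20.1 and 14.7 in lin-35 and, for htz-1, 0.507 and 1.25. It rose in lin-35 by 4.07 ± 0.31 on the log2 scale (limma adjusted p = 0.00024), with no overlap between lin-35 and the other 4 libraries. In htz-1 neither adaptor passed the threshold: the log2 fold changes against N2 were 0.30 ± 0.44 for fbxa-75 (limma adjusted p = 0.633) and 0.49 ± 0.31 for fbxa-158 (0.264). The direct test of lin-35 against htz-1 gave 4.44 for fbxa-75 (limma adjusted p = 0.000683) and 3.58 for fbxa-158 (0.000381).

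fbxa-158 lies in a tandem run of F-box A genes on chromosome II with no other protein-coding gene between them. Their order is fbxa-161, fbxa-162, fbxa-163, fbxa-164, fbxa-165, fbxa-166, fbxa-158, fbxa-159 and fbxa-160. Of these 9, 7 were in the expression table and 6 were tested, and all 6 rose in lin-35, with log2 fold changes from 2.00 to 4.49. All 6 had an N2 mean below 1 RPKM. They entered the test only through mutant reads and were bound to be higher in at least 1 mutant. fbxa-165 stood at 0.0422 and 0.0511 RPKM in N2 (1 read in each), 15.2 and 10.9 in lin-35 and, for htz-1, 0.133 and 0.454. Its lin-35 level per read of the library was 283 times that in N2, with a 95% exact interval from 77.8 to 2339 that covers counting error only. For htz-1 the same ratio was 5.92, with an interval from 1.29 to 55.0. The fitted log2 fold change of fbxa-165 was 4.49 ± 0.30 (limma adjusted p = 0.000144), and in htz-1 it was 0.52 ± 0.30 (0.221).

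The next gene of the run, fbxa-164, had 1 read in N2 (0.0494 and 0 RPKM) and stood at 4.24 and 3.76 in lin-35 and, for htz-1, 0.572 and 0.266. All lin-35 values were above all htz-1 values, and these above N2. fbxa-164 rose by 2.99 ± 0.29 on the log2 scale in lin-35 (limma adjusted p = 0.00065), while its 0.81 ± 0.29 in htz-1 missed the threshold (0.0764). By contrast, the pseudogene fbxa-162 and its neighbour fbxa-163 rose in both mutants. fbxa-162 measured 0.0603 and 0.146 RPKM in N2, 3.33 and 4.51 in lin-35 and, for htz-1, 2.41 and 1.95. fbxa-163 measured 0.448 and 0.217 in N2, 4.67 and 4.60 in lin-35 and, for htz-1, 1.79 and 1.87. For fbxa-162 the log2 fold changes were 2.75 ± 0.26 in lin-35 (limma adjusted p = 0.00055) and 2.18 ± 0.26 in htz-1 (0.00169), and the difference of 0.57 between the mutants was not called (0.14). For fbxa-163 they were 2.51 ± 0.23 (limma adjusted p = 0.000522) and 1.52 ± 0.23 (0.00416), and the mutants differed by 0.99 (0.0204), a call that was lost when any one of the 4 mutant libraries was left out (adjusted p up to 0.0756).

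Within the same run fbxa-166 moved in opposite directions, at 1.07 and 0.786 RPKM in N2, at 6.70 and 5.04 in lin-35 and, for htz-1, 0.341 and 0.312. Its lin-35 libraries were above N2 and its htz-1 libraries below. fbxa-166 rose by 2.00 ± 0.24 on the log2 scale in lin-35 (limma adjusted p = 0.00153) and fell by 0.80 in htz-1 (0.0439), the latter a call that was lost without either N2 or either htz-1 library (adjusted p up to 0.228). The first gene, fbxa-161, did not reach the limit for testing. It had no read in N2, 7 and 7 reads in lin-35 and, for htz-1, 4 and 4. These pooled rates were 5.18 and 2.87 times a floor of 3 reads over both N2 libraries, without the counting error of the mutant reads. The genes on either side of the run are no F-box A genes. bath-46, a member of the MATH-BTB adaptor family of CUL-3 ligases, rose in both mutants (log2 fold changes 1.91 and 1.17), and C08E3.13, which has no symbol, rose by 2.35 in lin-35 (78.9 and 70.9 RPKM in N2, 768 and 244 in lin-35) and fell by 1.42 in htz-1. bath-33, which lies between bath-46 and the run, had at most 1 read in any library.

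**Figure D3:**
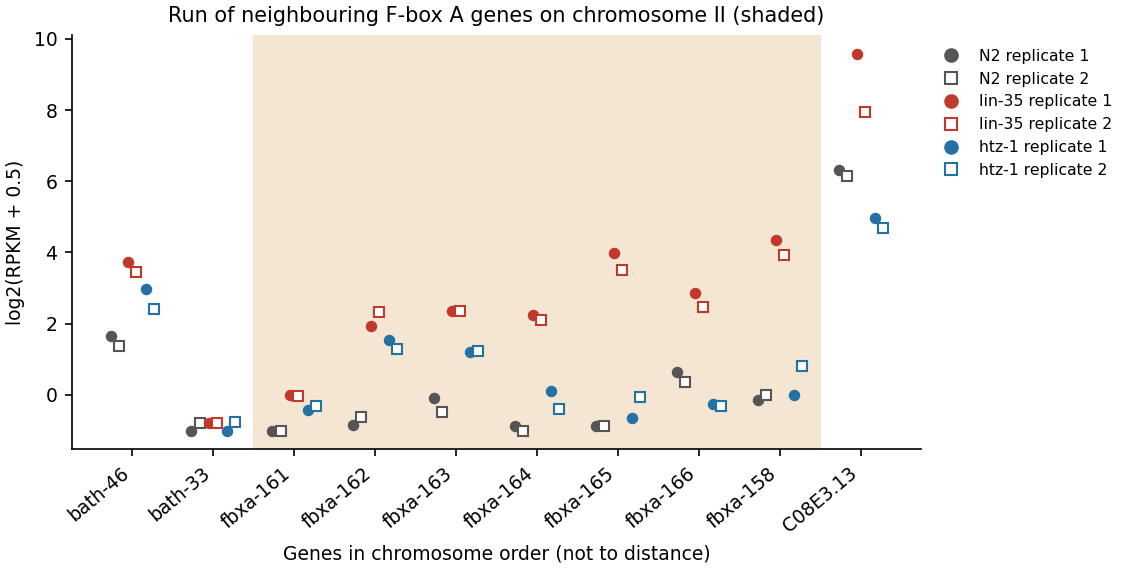
Levels in log2(RPKM + 0.5) (vertical axis) of the genes in and beside the chromosome II run, in chromosome order. Each point is 1 library (circles replicate 1, squares replicate 2), the shaded span holds the 7 F-box A genes of the run that the table lists, and genes near the run without more than 2 reads in any library are left out except bath-33. The red lin-35 points lie above the grey N2 points for each shaded gene. The blue htz-1 points lie above N2 for each shaded gene except fbxa-166, where they lie below it. Only the htz-1 rises of fbxa-162 and fbxa-163 were called.

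Outside this run, fbxa-182, also on chromosome II, reached the highest level of any member. It stood at 5.06 and 2.39 RPKM in N2, at 42.8 and 34.6 in lin-35 and, for htz-1, 1.28 and 0.681. The 3 genotypes did not overlap, with lin-35 at the top and htz-1 at the bottom. fbxa-182 rose by 3.11 ± 0.33 in lin-35 (limma adjusted p = 0.000823) and fell by 1.49 in htz-1 (0.0146), and its log2 difference between the mutants, 4.60 ± 0.33, was larger than that of any other member (0.000205). The fall in htz-1 was lost without N2 replicate 1 or htz-1 replicate 2 (adjusted p up to 0.078).

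Of the remaining large rises, fbxa-135 measured 0.262 and 0.0353 RPKM in N2, 4.71 and 3.37 in lin-35 and, for htz-1, 0.856 and 0.744. The order lin-35, htz-1, N2 held without overlap, and fbxa-135 rose by 2.70 ± 0.30 in lin-35 (limma adjusted p = 0.001) and by 1.04 ± 0.30 in htz-1 (0.0345), the latter a call lost without any 1 of the N2 or htz-1 libraries (adjusted p up to 0.171). fbxa-30 was at 0.0595 and 0.144 RPKM in N2, from 3 reads in all, at 3.94 and 3.16 in lin-35 and, for htz-1, 0.125 and 0.480. Only its lin-35 libraries stood apart, at 36.3 times the N2 rate (95% exact interval 12.1 to 179), with a log2 fold change of 2.63 ± 0.33 (limma adjusted p = 0.00186). fbxa-88 measured 0.622 and 0.274 RPKM in N2, 5.26 and 1.77 in lin-35 and, for htz-1, 0.178 and 0.228. The lin-35 libraries of fbxa-88 differed 2.97-fold, and its rise of 1.83 ± 0.45 (limma adjusted p = 0.0264) was lost without lin-35 replicate 1 or without either N2 library (adjusted p up to 0.15). fbxa-24 measured 3.95 and 3.17 RPKM in N2, 12.3 and 15.6 in lin-35 and, for htz-1, 7.70 and 8.36, a rise of 1.66 ± 0.18 in lin-35 (limma adjusted p = 0.000929) and of 1.07 ± 0.18 in htz-1 (0.00554). Unlike most of the 25, fbxa-24 was higher in lin-35 replicate 2. The other 13 risen members had log2 fold changes from 0.51 (fbxa-150) to 1.66 (fbxa-60). Over the 25, replicate 1 of lin-35 was the higher one for 23, with ratios of replicate 1 to 2 from 0.737 to 2.97 and a median of 1.38.

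**Figure D4:**
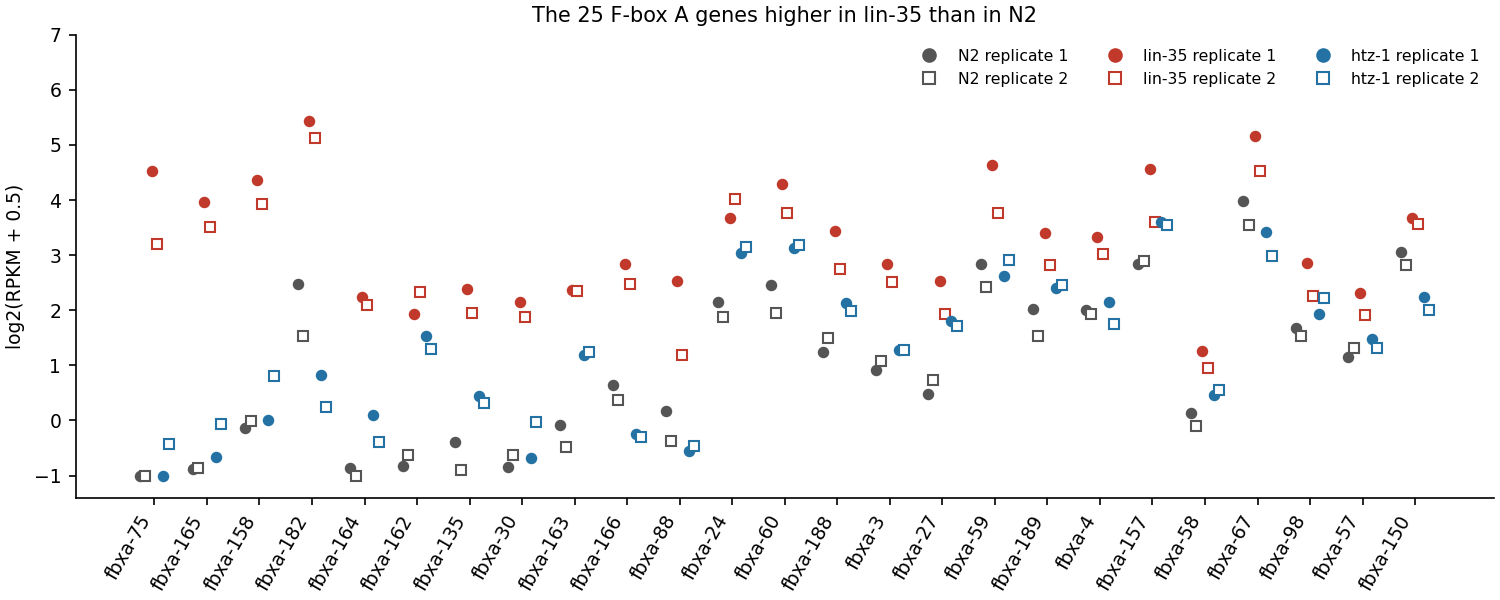
Levels in log2(RPKM + 0.5) (vertical axis) of the 25 F-box A genes called higher in lin-35 than in N2, ordered by log2 fold change from the left. Each point is 1 library (circles replicate 1, squares replicate 2). Both lin-35 points lie above both N2 points for each gene, as they do for all 1175 genes called higher and for 47.6% of all tested genes. The htz-1 points range from below N2 (fbxa-182, fbxa-166) to well above it (fbxa-162).

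Only 3 members fell in lin-35. fbxa-192 measured 5.67 and 5.77 RPKM in N2, 0.637 and 1.62 in lin-35 and, for htz-1, 0.546 and 0.932. Both mutants lay below N2 and overlapped each other, with log2 fold changes of -2.13 ± 0.34 in lin-35 (limma adjusted p = 0.00481) and -2.37 ± 0.34 in htz-1 (0.00321). These 2 calls held when any single library was left out. The pseudogene fbxa-91 measured 10.0 and 7.88 RPKM in N2, 5.05 and 2.88 in lin-35 and, for htz-1, 1.82 and 3.79. It fell by 1.28 in lin-35 (limma adjusted p = 0.0361) and by 1.59 in htz-1 (0.0144), again with both mutants below N2 and overlapping. The first of these calls was lost without either N2 library or lin-35 replicate 2 (adjusted p up to 0.176) and the second without N2 replicate 1 (0.0904). fbxa-197 fell by 0.69 in lin-35 (limma adjusted p = 0.0457), a call that no longer passed when any of the 6 libraries was left out (adjusted p up to 0.274). The count of falls was 1 without N2 replicate 1, N2 replicate 2 or lin-35 replicate 2.

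In htz-1 the family moved in both directions. Of the 77 members, 14 (18.2%) rose and 12 (15.6%) fell against N2, where 15.2% of all tested genes rose and 16.5% fell, so that both shares lay near the background. The median log2 fold change of the members was 0.17, against 0.00 over all genes. The counts moved with single libraries: rises numbered 9 without N2 replicate 1, 7 without N2 replicate 2 and 7 without htz-1 replicate 2, and falls numbered 3 without N2 replicate 1 and 5 without htz-1 replicate 2. Without N2 replicate 2 there were 8 falls beside the 7 rises. With a mean of 1 RPKM asked of N2 as well, 9 of 60 members rose and 11 fell, where 14.6% of all genes rose and 17.2% fell, so that which direction held more calls depended on these choices. Calls for 5 of the 14 rises and 3 of the 12 falls held in all 6 of these fits. Both comparisons with N2 used the same N2 libraries, so their values are set side by side below and not correlated.

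The deepest falls in htz-1 were those of fbxa-151 and fbxa-78, which both lie in tandem runs on chromosome III and were not called in lin-35. fbxa-151 measured 6.81 and 5.95 RPKM in N2, 10.4 and 5.54 in lin-35 and, for htz-1, 0.482 and 0.441. fbxa-78 measured 7.66 and 6.41 in N2, 9.70 and 6.02 in lin-35 and, for htz-1, 0.589 and 0.670. For both genes the htz-1 libraries were far below the other 4, and N2 and lin-35 overlapped. fbxa-151 fell by 2.87 (limma adjusted p = 0.000878) and fbxa-78 by 2.76 (0.000636) in htz-1, with values of 0.07 ± 0.27 and -0.05 ± 0.23 in lin-35 (adjusted p 0.88 and 0.902). The direct test of lin-35 against htz-1 gave 2.94 for fbxa-151 (limma adjusted p = 0.000494) and 2.71 for fbxa-78 (0.000367), and all of these calls held without any single library.

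Apart from that of fbxa-192, given above, further falls in htz-1 were smaller and their calls depended on single libraries. The pseudogene fbxa-92 measured 11.6 and 6.75 RPKM in N2, 6.22 and 2.81 in lin-35 and, for htz-1, 3.15 and 1.90. It fell by 1.68 in htz-1 (limma adjusted p = 0.0167) and its -1.16 ± 0.38 in lin-35 was not called (0.0702). fbxa-76 fell by 1.14 (limma adjusted p = 0.0148) and the pseudogene fbxa-97 by 0.94 (0.0466). The calls for fbxa-92 and fbxa-76 were lost without N2 replicate 1 or htz-1 replicate 2 (adjusted p up to 0.105 and 0.103), and that for fbxa-97 without either library of N2 or htz-1 (0.203).

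Among the rises in htz-1, fbxa-162 came first, followed by the pseudogene fbxa-21, at 2.15 and 2.08 RPKM in N2, at 3.69 and 3.46 in lin-35 and, for htz-1, 7.46 and 8.49. The genotypes of fbxa-21 did not overlap, with htz-1 highest, and it rose by 1.69 ± 0.16 in htz-1 (limma adjusted p = 0.000901), while its 0.48 ± 0.16 in lin-35 was not called (0.0706). fbxa-219 measured 3.62 and 2.49 RPKM in N2, 4.05 and 2.71 in lin-35 and, for htz-1, 10.2 and 8.89. Only htz-1 stood apart, with a rise of 1.51 ± 0.22 (limma adjusted p = 0.00353). The pseudogene fbxa-203 measured 1.51 and 1.69 RPKM in N2, 1.68 and 1.52 in lin-35 and, for htz-1, 3.76 and 4.25, again with htz-1 apart and a rise of 1.10 ± 0.20 (limma adjusted p = 0.00693). That call was lost only without N2 replicate 1 (0.0597). Smaller or less steady rises were those of fbxa-128 (1.31), fbxa-99 (1.30), fbxa-84 (1.27), fbxa-51 (1.22) and fbxa-27 (1.16), and each of these lost its call without 2 or 3 of the 6 libraries (limma adjusted p up to 0.142).

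Called values of opposite sign in the 2 comparisons with N2, which share its libraries, were those of fbxa-182, fbxa-166 and fbxa-150, and the direct test between the mutants passed the threshold for each. fbxa-150 measured 7.83 and 6.54 RPKM in N2, 12.3 and 11.4 in lin-35 and, for htz-1, 4.22 and 3.53. Its 3 genotypes did not overlap, but its rise of 0.51 ± 0.15 in lin-35 (limma adjusted p = 0.0427) was lost without either N2 or either lin-35 library (adjusted p up to 0.269), and its fall of 0.82 in htz-1 (0.00684) without N2 replicate 1 (0.0618). The difference between the mutants for fbxa-150 was 1.34 (limma adjusted p = 0.00106) and held without any single library.

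**Figure D5:**
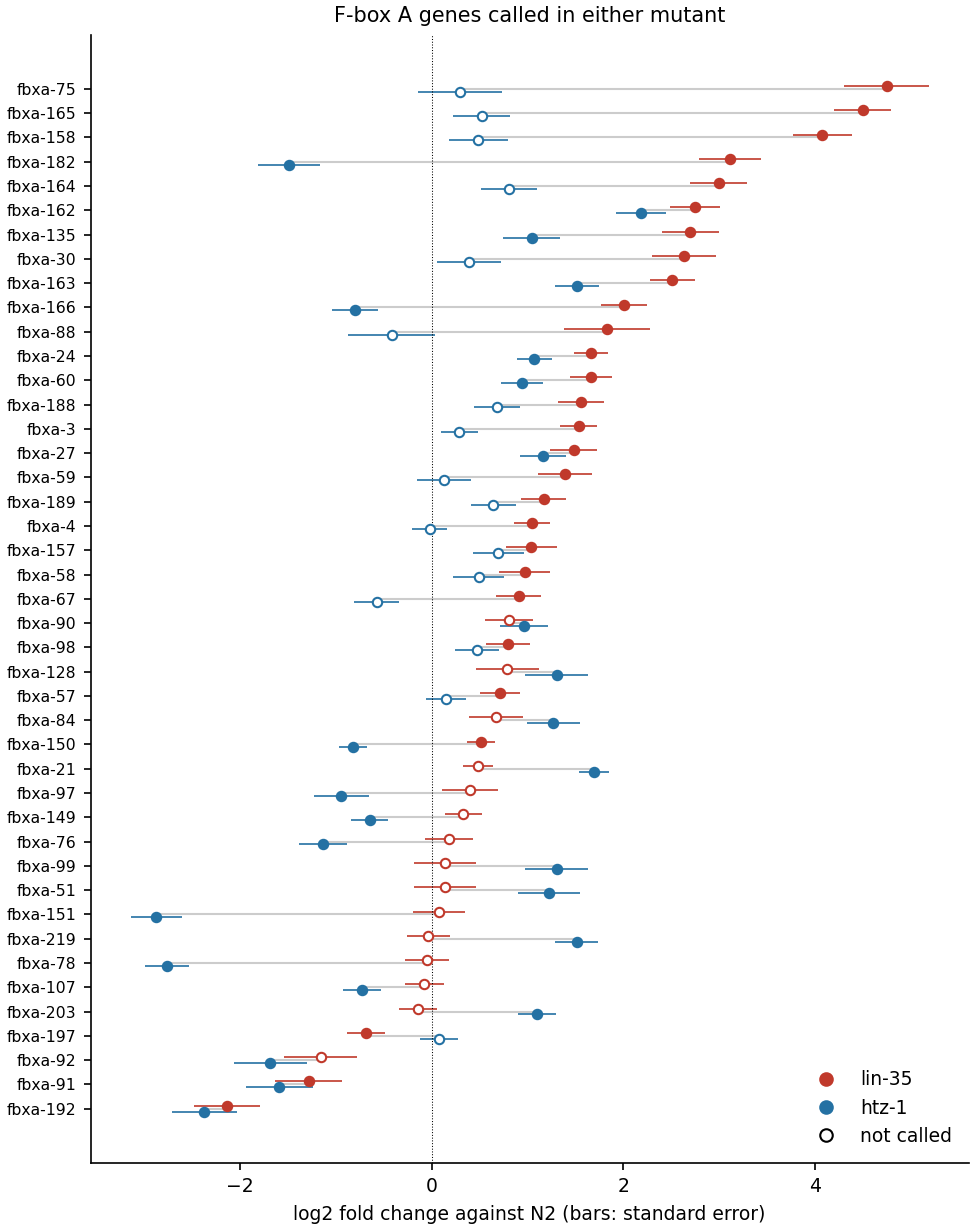
Log2 fold change against N2 (horizontal axis, bars are standard errors) of the 43 F-box A genes called in at least 1 mutant, lin-35 in red and htz-1 in blue, with open circles where the value was not called. Both comparisons share the N2 libraries. fbxa-182, fbxa-166 and fbxa-150 have filled points on both sides of 0, and fbxa-151 and fbxa-78 are called in htz-1 and not in lin-35.

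The difference between the mutants was tested directly. Of the 77 members, 27 (35.1%) were higher in lin-35 than in htz-1 and 8 (10.4%) lower, where 15.3% of all tested genes were higher and 14.5% lower, with a median of 0.40 for the members and 0.00 for all genes. With a mean of 1 RPKM asked of N2 as well, 17 of 60 members (28.3%) were higher and 7 lower, where 14.2% and 14.5% of all genes were. The count of higher members was 18 without htz-1 replicate 1, and 15 of the 27 held without any single library. After fbxa-182 and fbxa-75, the largest differences were those of fbxa-165 (3.97), fbxa-158 (3.58), fbxa-151 (2.94), fbxa-166 (2.80), fbxa-78 (2.71), fbxa-88 (2.25), fbxa-30 (2.24), fbxa-164 (2.18), fbxa-64 (1.68) and fbxa-135 (1.65). For fbxa-64 neither comparison with N2 passed the threshold (log2 fold changes 0.50 and -1.18, limma adjusted p = 0.407 and 0.0562), and its call against htz-1 was lost without lin-35 replicate 1 (adjusted p up to 0.0965). That of fbxa-88 was lost without htz-1 replicate 2 (0.05004). The 8 members lower in lin-35 than in htz-1 were fbxa-219 (-1.55), fbxa-203 (-1.24), fbxa-21 (-1.21), fbxa-99 (-1.16), fbxa-51 (-1.08), fbxa-215 (-0.91), fbxa-197 (-0.76) and fbxa-210 (-0.65). Of these 8, 3 held without any single library (fbxa-21, fbxa-203 and fbxa-219), and the others reached adjusted p values up to 0.194. The count of lower members was 3 without lin-35 replicate 1 or htz-1 replicate 1 and 4 without htz-1 replicate 2.

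By position, of the 11 members tested on chromosome II, 10 rose in lin-35 and none fell, of 30 on III 8 rose and 1 fell, and of 26 on V 6 rose and 2 fell. None of the 5 tested on chromosome I and none of the 3 on X rose in lin-35, and 1 of the 2 on IV did. Of the 10 on II, 6 belong to the run from fbxa-161 to fbxa-160. These 6 had an N2 mean below 1 RPKM and entered the test only through mutant reads. Over all tested genes, not split by chromosome, 12.1% rose and 11.6% fell in lin-35, and 15.2% rose and 16.5% fell in htz-1. In the gene order of the reference, 138 of the 222 F-box A genes lie in 37 runs of at least 2 with no other protein-coding gene between them. The longest run, 15 genes on chromosome III from fbxa-151 to fbxa-79, had 6 tested members, of which 2 rose in lin-35 (fbxa-75 and fbxa-30) and none rose and 1 fell in htz-1 (fbxa-151). Another chromosome III run of 9, from fbxa-21 to fbxa-92, had 8 tested members, of which none rose and 1 fell in lin-35, and 1 rose and 4 fell in htz-1, with log2 fold changes in htz-1 from -2.76 to 1.69. A further run there, 9 genes from fbxa-55 to fbxa-10, had 6 tested members, of which 3 rose in lin-35 (fbxa-59, fbxa-60 and fbxa-67) and 1 in htz-1 (fbxa-60). In lin-35 the call of fbxa-59 was lost without N2 replicate 2 (limma adjusted p = 0.0831) and that of fbxa-67 without either N2 library or lin-35 replicate 1 (up to 0.188), and in htz-1 that of fbxa-60 without N2 replicate 2 or either htz-1 library (up to 0.103). Among the 4 longest runs, the one on chromosome II was thus the only one in which each tested member rose in lin-35. That count depends on how its members entered: with a mean of 1 RPKM asked of N2 as well, none of them stays in the test. Since neighbours may share reads, the members of a run are not independent of each other.

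Members annotated as pseudogenes were listed less often, with 18 of 52 in the reference, against 142 of 170 protein-coding ones. Of these 18 pseudogenes 9 were tested, of which 3 rose and 1 fell in lin-35 and 3 rose and 4 fell in htz-1. The 68 tested protein-coding members gave 22 rises and 2 falls in lin-35 and 11 rises and 8 falls in htz-1. As background, the test of lin-35 against N2 called 12.1% of all 9679 genes higher and 11.6% lower. That of htz-1 against N2 called 15.2% higher and 16.5% lower. These background shares were not split by annotation. Among the 83 members below the limit, 8 had a read in both lin-35 libraries and none in N2, while 2 had the reverse. Over all 5889 genes below the limit these counts were 313 (5.31%) and 76 (1.29%).

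The partners with which F-box proteins work were read next. Of all tested genes 12.1% rose and 11.6% fell in lin-35, and 15.2% rose and 16.5% fell in htz-1. Of 10 tested genes of the SCF core list (cullins, RING proteins and SKR adaptors), 5 rose and none fell in lin-35, and 2 rose and 2 fell in htz-1 (1 and 0 with RPKM as deposited, 0 and 0 with quantile normalization). skr-2 measured 45.6 and 55.1 RPKM in N2, 114 and 124 in lin-35 and, for htz-1, 54.6 and 47.8, a rise of 1.06 in lin-35 (limma adjusted p = 0.0014) and no call in htz-1 (0.925). skr-1, the abundant Skp1 homologue, measured 247 and 231 RPKM in N2, 246 and 244 in lin-35 and, for htz-1, 251 and 240, and was not called. Of the CUL-6 ligase, which uses fbxa-75 and fbxa-158, 5 genes including these adaptors were tested, and all 5 rose in lin-35. Its cullin cul-6 measured 4.02 and 4.16 RPKM in N2, 12.6 and 7.01 in lin-35 and, for htz-1, 3.71 and 3.16, a rise of 0.94 in lin-35 (limma adjusted p = 0.0315). skr-3 rose by 0.61 in lin-35 (limma adjusted p = 0.0311) and fell by 0.51 in htz-1 (0.0451), and rcs-1, a RING protein gene, rose by 0.91 (0.0122) and fell by 0.62 (0.0422). With quantile normalization 4 of the 5 CUL-6 genes rose in lin-35 and none fell in htz-1, and with RPKM as deposited 1 fell in htz-1. Of 9 genes of the pathogen response list, among them these 5, 8 rose in lin-35 and 5 fell in htz-1 (4 as deposited, 3 with quantile normalization). Its common reporter gene pals-5 had RPKM of 0.0992 and 0 with N2 and of 22.1 and 13.8 with lin-35. The SCF core, CUL-6 and pathogen response lists share cul-6 and skr-3, and fbxa-75 and fbxa-158 were already counted with the family. The counts of these lists are therefore not separate results.

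Counts for the other F-box families were as follows. Of 104 F-box B genes in the table only 2 were tested, of which fbxb-14 rose by 2.57 in lin-35 (limma adjusted p = 0.000612) and fbxb-7 by 0.89 in lin-35 (0.0438) and 2.80 in htz-1 (0.000761). Of 45 F-box C genes 13 were tested. None of these rose or fell in lin-35 with the main scaling, 1 rose when values were used as deposited and 2 fell with quantile normalization, and in htz-1 1 rose and 8 fell, with a median of -0.86. In htz-1 fbxc-4 fell by 1.31 (limma adjusted p = 0.00153), fbxc-3 by 1.26 (0.00181) and fbxc-5 by 1.13 (0.00156), genes whose levels were close to each other in each library. MATH and BATH genes (symbols beginning with math or bath) gave 11 rises and no fall among 46 tested in lin-35 and 6 rises and 3 falls in htz-1. Of the 11 rises in lin-35, only that of bath-46 was of a bath gene. In lin-35 the rises numbered 17 with RPKM as deposited and 10 with quantile normalization. The largest in lin-35 were math-44 (2.71), math-5 (2.46), math-34 (2.32) and math-49 (2.26). Of 5 conserved F-box genes 1 rose in lin-35 and 3 in htz-1, namely prom-1, fbxl-1 and lin-23, and fog-2 and ftr-1 were called in neither mutant.

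The tested genes whose levels over the 6 libraries most resembled the mean profile of the 25 risen members were K02E2.7 (Pearson r = 0.998), vsra-1, an Argonaute gene (0.998), F53H2.1 (0.997), clc-1, a claudin-like gene (0.997) and tftc-5, of the TFIIIC transcription factor (0.997). None of them is an F-box A gene. The values are a description over 6 libraries of 3 genotypes, in which any gene high in lin-35 and even elsewhere scores high. vsra-1 stood at 7.77 and 7.41 RPKM in N2, at 59.3 and 42.9 in lin-35 and, for htz-1, 11.6 and 12.2.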

How the data were processed

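RNA-seq libraries from 6 samples (2 per genotype) were used. The 14 ChIP samples were not analysed here. Per the methods and the submitters' processing notes, the authors aligned reads to the ce10 assembly with BWA, counted them per gene model with HTSeq in union mode, tested them with DESeq2 and left out genes that oscillate during larval development. The deposited table gives RPKM per gene and library, and also holds fold changes and p-values of the authors' own comparisons, which were not used. RPKM values were whole multiples of 1 read for all 15568 genes (tolerance 0.002 reads), from which library totals and reads were recovered.

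RPKM were scaled by median ratios, transformed to log2(RPKM + 0.5), limited to a mean of at least 1, and fitted with limma 3.58.1 in R 4.3.3 (genotype only, variance trend, two-sided, threshold 0.05 after Benjamini-Hochberg adjustment over all 9679 genes). The fit and the recovery of reads were tested on simulated data. The members, lists and tests were chosen with earlier results of these data known. Members named were, per comparison, up to 12 largest rises and 8 largest falls past the threshold with both libraries beyond those of the other genotype, the 10 highest in N2, the CUL-6 adaptors, members called in opposite directions, the longest runs and the members at the limit. Other lists were described by counts, with up to 4 examples each. Symbols were matched for 15397 genes through the RefSeq table, whose build (WBcel235) differs from that of the values, so only names and gene order were taken from it. Exact intervals are Clopper-Pearson intervals, at 95%, on reads. Alternatives covered scaling, pseudocount, limit, variance trend, read-based fit, replicate block, the genotypes fitted and each library left out.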

Additional observations from a re-analysis of the deposited data

How the results depend on the processing

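The 3 medians of the members stayed above 0 under each alternative fitted, and in lin-35 more members rose than fell in each, but in htz-1 the balance of rises and falls turned. In lin-35 against N2, 25 members rose and 3 fell, 1 fell with RPKM as deposited, 14 rose with a mean of 1 asked of N2 as well, and leaving out single libraries gave 15 to 26 rises and 1 to 4 falls. The median of 0.39 became 0.14 with quantile normalization, under which the median over all tested genes was -0.08. In htz-1 against N2, 14 rose and 12 fell, 9 rose and 11 fell with the N2 limit, 7 rose and 8 fell without N2 replicate 2, and leaving out libraries gave 7 to 17 rises and 3 to 14 falls. In lin-35 against htz-1, 17 were higher with the N2 limit and 5 lower with RPKM as deposited, and leaving out libraries gave 18 to 27 higher and 3 to 8 lower, with medians from 0.27 to 0.62. The N2 limit was chosen after seeing the data. limma-voom on recovered reads gave 22 rises and 2 falls in lin-35. No call of a named member changed direction. Replicate numbers are shared between genotypes, but the labels do not say that they mark a shared culture or day, and same-numbered deviations correlated at 0.32 (N2 and lin-35), 0.10 (N2 and htz-1) and 0.02 (lin-35 and htz-1) over all tested genes. A replicate block gave 24 rises and 3 falls in lin-35, 17 and 16 in htz-1, and 28 and 10 between the mutants. The planned comparison of near-identical protein pairs was not run, since no sequences were at hand. With 4369 to 10543 reads in the family per library, members below 1 RPKM rest on few reads.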
